A study of Macaca fascicularis with 6 samples.

Results

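Alveolar type 2 (AT2) cells were taken from single-cell lung libraries of male cynomolgus monkeys, and 428 of 25388 quality-filtered cells were AT2 cells. A cell was counted as AT2 when it held at least 10 unique molecular identifiers (UMIs, the counted RNA molecules) of SFTPC and at least 1 UMI of 3 or more of SFTPD, SLC34A2, PGC, NAPSA, LAMP3 and ABCA3. It also had to lack PTPRC, C1QA and PECAM1, the markers of blood cells, macrophages and endothelium, and to hold fewer than 50 UMIs of the mesothelial gene ITLN1. Cells entered with more than 500 and fewer than 5000 genes and no more than 25% mitochondrial UMIs (13 genes). The 3 control libraries (replicates 1, 2 and 3) and the 3 asthma libraries (replicates 8, 10 and 11) came from 1 monkey each, aged 3 to 5 years. By the study's methods, asthma monkeys were sensitized under the skin with Ascaris suum antigen at 1 mg/mL and challenged through the nose at 10 mg/mL, controls were given the same amount of saline, and lung was collected in week 11. Ascaris suum is a roundworm of pigs, so the model is an allergic response to a parasite antigen, and its single allergen and single collection week bound what the asthma group stands for. The libraries were 3′ UMI libraries of dissociated tissue with 29014556 to 41489879 UMIs each.

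AT2 cells line the alveolus and make pulmonary surfactant, the mixture of phospholipids and proteins that lowers surface tension so that air spaces do not collapse. The lipids are packed with the small hydrophobic proteins SFTPB and SFTPC in lamellar bodies and released into the air space, whereas SFTPA1, SFTPA2 and SFTPD are collectins that bind microbes. AT2 cells also divide and give rise to the flat alveolar type 1 (AT1) cells after injury.

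Libraries are given throughout in the order of control replicates 1, 2 and 3, then asthma replicates 8, 10 and 11. The control libraries held 116, 34 and 21 AT2 cells, and the asthma libraries 39, 92 and 126. They made up 2.57%, 0.968% and 0.516% of the quality-filtered cells of the control libraries and 0.906%, 1.95% and 2.95% of those of the asthma libraries. The groups overlapped, since control replicate 1 had a larger share than asthma replicates 8 and 10. The mean was 1.35% ± 1.08 in controls and 1.93% ± 1.02 in asthma (SD, n = 3 each), a difference of 0.581 percentage points (two-sided exact permutation test over 20 assignments, p = 0.6, smallest possible p 0.1). The difference was 0.0752 without asthma replicate 11, 0.163 without control replicate 3, 0.389 without control replicate 2, 1.09 without asthma replicate 8 and 1.19 without control replicate 1. Most cells of these libraries carried PTPRC, and as a share of cells without PTPRC the control mean was the larger one, with 9.01% ± 6.5 against 7.02% ± 2.68 (exact permutation p = 0.7). Fewer AT2 cells in the lung and fewer AT2 cells released by dissociation cannot be told apart in such shares.

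**Figure D1:**
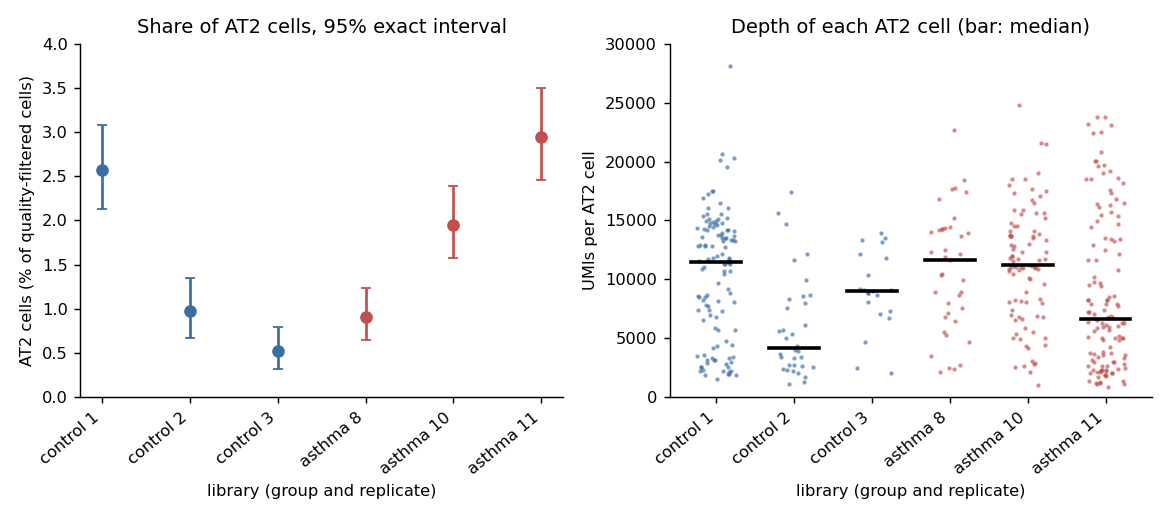
Left, AT2 cells as a percentage of the quality-filtered cells of each library, with exact 95% binomial intervals that cover counting error only. Right, UMIs in each AT2 cell (1 point a cell, black bar the library median), where control replicate 2 has the lowest median at 4173 UMIs and asthma replicate 8 the highest at 11649.

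AT2 cells were deeper than the other cells. The median AT2 cell held 11473.5, 4173 and 8970 UMIs in controls and 11649, 11193 and 6593 UMIs in asthma, whereas the median quality-filtered cell held 3790 to 4853 UMIs. Control replicate 2 was the exception, with AT2 cells shallower than its median cell of 4853 UMIs. The group means of the medians were 8206 ± 3710 and 9812 ± 2797 UMIs (SD, n = 3 each, exact permutation p = 0.6), and without control replicate 2 the difference turned negative, at -410 UMIs. AT2 cells of control replicate 2 also had the largest median mitochondrial share, 7.60%, against 4.05% to 7.06% in the other libraries. Summed over cells, the AT2 pools held 1199723, 199838 and 189209 UMIs in controls and 421450, 1028075 and 1090282 UMIs in asthma, so values of control replicates 2 and 3 rest on the fewest molecules.

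The label can be checked only on genes that did not choose the cells. SFTPB was the only fixed AT2 marker with a symbol in the files that the rule did not use, and it was found in 96.7% of AT2 cells against 1.27% of the other cells. The values of the rule's own genes are a description. All 6 second markers were present in 279 of the 428 cells, and SFTPC was the most abundant gene. It took 23.2%, 18.96% and 14.9% of all AT2 UMIs in controls and 21.6%, 19.1% and 22.4% in asthma. The AT2 cells held 59.0% to 81.3% of all SFTPC UMIs of their library, counted over all its barcodes, including those outside the quality filter. As a background level, 6.38% of T cells (CD3E-positive and EPCAM-negative cells with fewer than 10 SFTPC UMIs) held at least 1 SFTPC UMI in control replicate 3 and 81.7% did in asthma replicate 11. The mean per such T cell was 0.0648 to 2.01 UMIs. The library medians in AT2 cells were 563 to 2589.5 UMIs, and the rule itself set these cells apart from the T cells in SFTPC.

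Few cells lay near the threshold. Inside it, 5 cells had 10 to 19 SFTPC UMIs, and outside it, 5 cells that met every other condition had 5 to 9. A further 140 cells met the SFTPC and second marker conditions but held a UMI of PTPRC, C1QA or PECAM1, or 50 or more of ITLN1, and were not counted, with a median of 1162 SFTPC UMIs. No AT2 cell barcode was found among the quality-filtered cells of another library, although 82 barcodes were shared between libraries. Scrublet, a caller of barcodes that hold more than 1 cell, marked 14 AT2 cells and 866 of all 25388 cells.

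Genes that the rule used are given as levels with no test. Levels here are CPM, the share of a gene's UMIs in the sum over a library's AT2 cells scaled to 1000000 UMIs, and they compare the same gene between cell groups. SFTPD, the surfactant collectin, was at 7639, 9743 and 9334 CPM in controls and at 11026, 8644 and 8317 CPM in asthma. SLC34A2, the sodium-phosphate cotransporter that recovers phosphate from surfactant, ranged from 3510 to 5004 CPM. NAPSA, the aspartic protease that processes surfactant proteins, ranged from 687 to 1492 CPM. These genes therefore varied by less than a factor of 3 over monkeys.

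LAMP3, a lamellar body membrane protein, ranged from 1116 to 2211 CPM, and ABCA3, the transporter that carries phospholipid into lamellar bodies, from 217 to 382 CPM. PGC, the pepsinogen C that AT2 cells make alongside surfactant, varied most. It was at 8207, 3032 and 407 CPM in controls and at 3557, 1021 and 3140 CPM in asthma. Control replicate 3 was the lowest and control replicate 1 the highest, and the asthma values lay between them. SFTPA1 and SFTPA2 carry no symbol in the gene list of the files and were not analysed here.

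**Figure D2:**
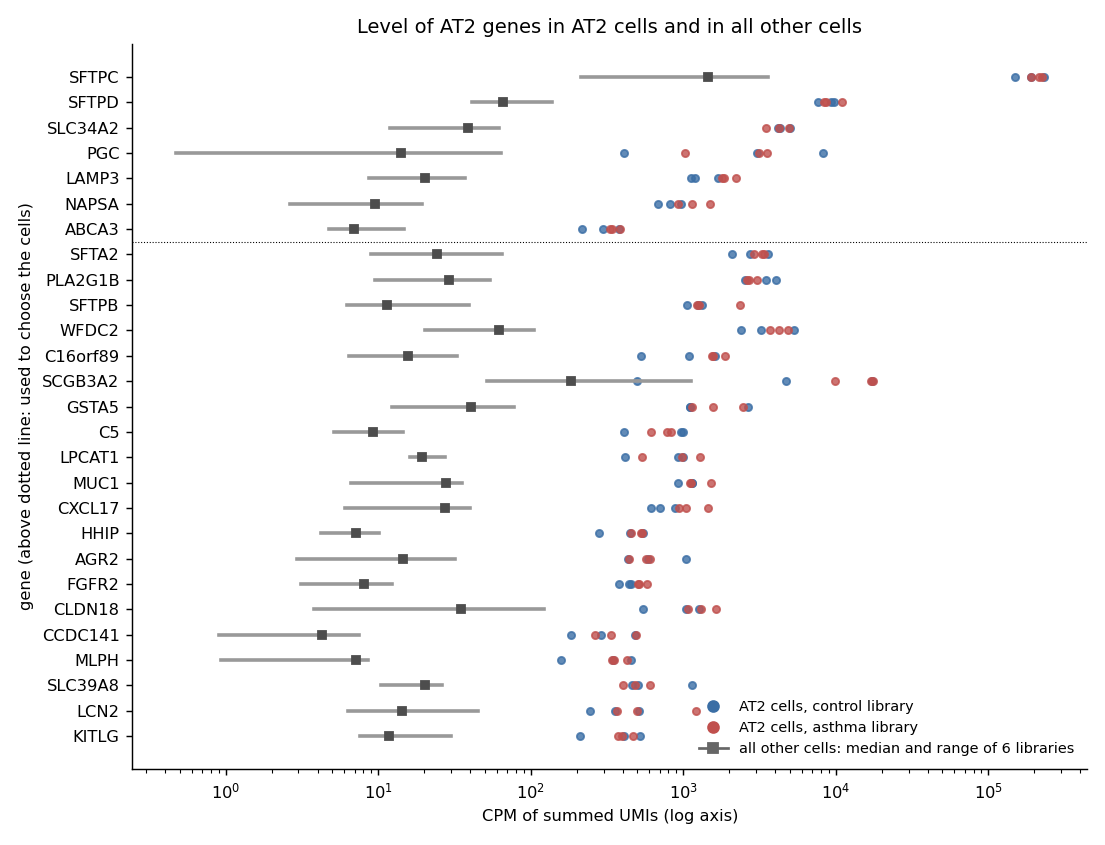
CPM of summed UMIs (log axis) for 7 genes that chose the cells (above the dotted line) and 20 that did not, in the AT2 cells of each library (blue control, red asthma) and in all other quality-filtered cells (gray square the median, gray line the range of 6 libraries). PGC and SCGB3A2 spread most over libraries, and the SCGB3A2 level of control replicate 2, at 500 CPM, is the only AT2 point drawn inside the range of the other cells.

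Genes outside the rule were ranked by their level in AT2 cells over that in all other cells of the same library. Since the cells were chosen by their RNA, this is a description with no test. Of 870 genes at a median of 100 CPM or more, 101 were at least 4-fold higher in AT2 cells than in the other cells in all 6 libraries, with 10 CPM added to each level. The genes are described here by what they are known to do, and these groups were not tested. SFTA2 and PLA2G1B led the ranking. SFTA2, a small secreted protein of AT2 cells, was at a median of 3103 CPM in AT2 cells and 24.1 CPM in the other cells. PLA2G1B, a secreted phospholipase, was at 2862 and 29.3 CPM.

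SFTPB, the hydrophobic surfactant protein that the rule left out, was at a median of 1266 CPM in AT2 cells against 11.4 CPM in the rest. LPCAT1, the acyltransferase that makes the saturated phosphatidylcholine of surfactant, was at 949.6 and 19.4 CPM. C16orf89, at 1556 and 15.8 CPM, was found in 95.1% of AT2 cells.

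The 20 leading genes also held secreted proteins. WFDC2, a secreted protein with a protease inhibitor fold, was at a median of 3948 CPM in AT2 cells and 61.8 CPM in the other cells. Complement component C5 was at 806 and 9.30 CPM. LCN2, the siderophore-binding lipocalin, was at 431 and 14.3 CPM. The mucosal chemokine CXCL17 was among the 20 too, as were the cell surface mucin MUC1 and the disulfide isomerase AGR2.

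Receptors, ligands and transporters were also present. FGFR2, the receptor for fibroblast growth factors that maintain AT2 cells, was at a median of 481 CPM in AT2 cells and 8.10 CPM elsewhere. HHIP, which binds and restrains hedgehog ligands, was at 493 CPM in AT2 cells, 7.19 CPM in all other cells and a median of 0 CPM in the other epithelial cells. KITLG, the ligand of the KIT receptor of mast cells, was at 405 and 11.7 CPM. SLC39A8, a zinc and manganese importer, was at 494 and 20.4 CPM. The remaining leaders were SCGB3A2, GSTA5, CCDC141, MLPH and the tight junction gene CLDN18, and CLDN18 alone was lower in AT2 cells than in AGER-positive cells, with a median log2 difference of -1.99.

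Other epithelial cells were few, with 347 in all and 7 in control replicate 2, and 213 of them were AGER-positive cells with fewer than 10 SFTPC UMIs. Markers of other cell types were counted for the whole of each fixed list. Of 10 T and NK cell markers, 9 were detected and CD2 was at 0, and the list summed to 21.1 to 75.1 CPM in AT2 cells against 2771 to 6629 CPM in the other cells. Of 10 macrophage markers, 8 were detected and MSR1 was at 0 besides the rule gene C1QA. Without C1QA their sum was 31.7 to 236 CPM against 2452 to 6948 CPM, with FABP4 the most abundant.

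B and plasma cell markers summed to 0 to 85.0 CPM against 1409 to 7931 CPM, and fibroblast and smooth muscle markers to 16.5 to 60.05 CPM against 540 to 3236 CPM. Endothelial markers, without the rule gene PECAM1, summed to 21.4 to 64.2 CPM against 137 to 609 CPM, with CLDN5 at 0 in AT2 cells and at a median of 0.384 CPM in the others. Proliferation markers summed to 16.5 to 42.2 CPM against 99.9 to 579 CPM, and basal cell markers to 26.4 to 76.1 CPM against 101 to 512 CPM. Mast cell markers summed to 3.89 to 21.1 CPM against 24.6 to 220 CPM, and mesothelial markers without ITLN1 to 0 to 45.0 CPM against 72.0 to 527 CPM. Each of these sums was lower in AT2 cells than in the other cells in all 6 libraries. The rule required PTPRC, C1QA and PECAM1 to be absent, so low blood and vessel cell markers were partly set by it.

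Ciliated cell markers summed to 50.04 to 103 CPM in AT2 cells against 63.4 to 160 CPM, with AT2 cells higher in 2 libraries. Of 5 erythroid markers 2 were in the files, and they summed to 0 to 5.00 CPM against 0.686 to 440 CPM, with AT2 cells higher in 2 libraries. Club and secretory markers were higher in AT2 cells in all 6 libraries, with 585 to 22309 CPM against 283 to 1822 CPM. Of 6 of these markers in the files 4 were detected, with BPIFB1 and MUC5B at 0, and SCGB3A2 made up most of the sum. SCGB3A1 was lower in AT2 cells, at a median of 2.44 CPM against 321 CPM. AT1 markers summed to 2896 to 4081 CPM against 491 to 1383 CPM, with CLDN18, EMP2, HOPX and CYP4B1 as the abundant ones, while AGER was at a median of 106 CPM.

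Granulocyte and monocyte markers summed to 555 to 6850 CPM in AT2 cells against 4462 to 9856 CPM in the other cells. The sum was lower in AT2 cells in all 6 libraries, and S100A9 was the most abundant. The protein forms calprotectin with S100A8 in neutrophils and monocytes. S100A9 was at 1824, 460 and 6707 CPM in the AT2 cells of controls and at 1139, 1819 and 1441 CPM in asthma. Its partner S100A8 was at 6.67, 10.0, 47.6, 0, 0.973 and 18.3 CPM in the same order. S100A9 was found in 75.2% of AT2 cells and 22.8% of other cells, whereas S100A8 was found in 3.97% and 19.4%. In the other cells both genes were at like levels, with medians of 632 CPM for S100A9 and 514 CPM for S100A8.

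Within the AT2 cells, SCGB3A2 split the population. SCGB3A2 is a secretoglobin, a small secreted protein of airway secretory cells. It was at 0 in 355 cells, at 1 to 9 UMIs in 24 and at 10 to 49 UMIs in 5, and 44 cells held 50 or more, with a median of 722.5. This boundary was chosen after its values were seen, and the contrast is given with no test. The 44 cells were 10.3% of all AT2 cells (exact 95% binomial interval 7.57 to 13.6, counting error only). They numbered 8, 1 and 3 in controls and 3, 15 and 14 in asthma, or 6.90%, 2.94% and 14.3% against 7.69%, 16.3% and 11.1% of the library's AT2 cells, so the groups overlapped.

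The SCGB3A2-rich cells met the rule but departed from the label in part. PGC was found in 4.55% of them and in 87.0% of the cells without SCGB3A2, and HHIP in 4.55% and 86.2%. SCGB1A1, the major club cell secretoglobin, was found in 90.9% of the SCGB3A2-rich cells and in 5.07% of the cells without SCGB3A2. Their median SFTPC was 653.5 UMIs against 1868, and their median depth of 13039 UMIs was above the 8492 UMIs of the cells without SCGB3A2. Scrublet marked 1 of the 44.

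**Figure D3:**
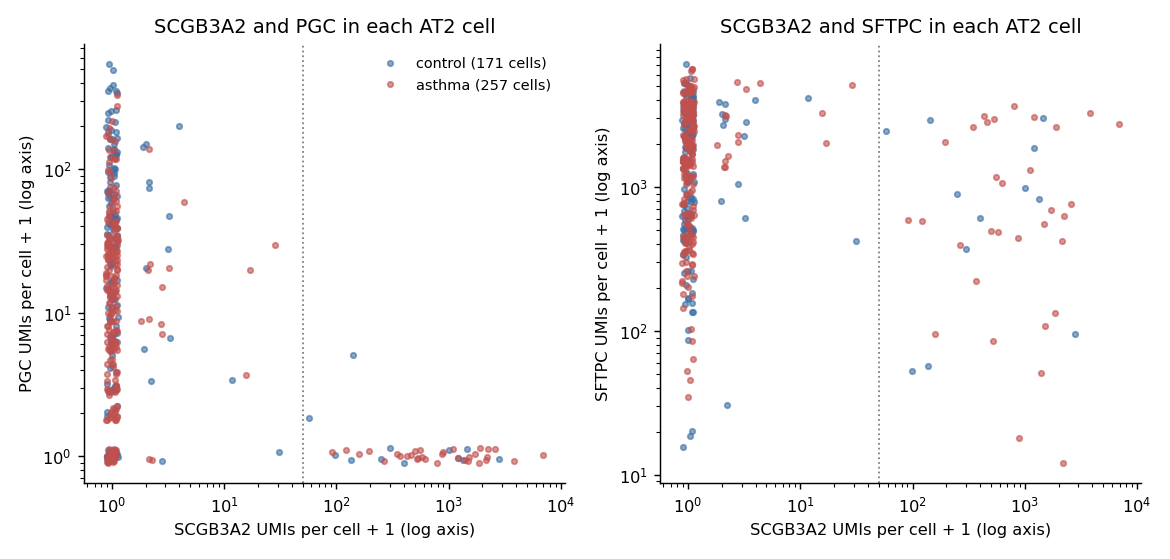
PGC (left) and SFTPC (right) against SCGB3A2 in each of the 428 AT2 cells, as UMIs + 1 on log axes with small random shifts, colored by group, the dotted line at 50 SCGB3A2 UMIs. The cells to the right of the line lie along the PGC floor with 2 exceptions, while their SFTPC counts run from 11 to 4070 UMIs.

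The 3 libraries with at least 5 SCGB3A2-rich cells were control replicate 1, asthma replicate 10 and asthma replicate 11. Of 1083 genes compared there, 44 were at least 2-fold higher in SCGB3A2-rich cells in each library and 35 were at least 2-fold lower in each, with 10 CPM added. The higher genes included ALDH1A1, a retinaldehyde dehydrogenase, at 772 against 43.7 CPM over all libraries. PIGR, the receptor that carries polymeric immunoglobulins across epithelium, was at 1248 against 130 CPM. SCNN1B, a subunit of the epithelial sodium channel, was at 135 against 6.12 CPM. Xenobiotic enzymes (CYP2A23 and FMO2), the protease inhibitor SPINK1 and the water channel AQP5 were also among them.

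Named genes among the 35 lower ones are given as examples, and no theme of the set was tested. LAMP3, which the rule used, was at 334 CPM in SCGB3A2-rich cells against 1971 CPM in the rest. SCD, the desaturase of fatty acids, was at 14.9 against 152 CPM, and MSMO1, an enzyme of cholesterol synthesis, at 39.2 against 222 CPM. CCDC141, IGFBP2, PEBP4, LGI3 and HPN were lower too. SFTPC, SLC34A2, ABCA3 and NAPSA were lower by 1.13 to 1.26 on the log2 scale over all libraries, and SFTPD was lower by 0.77. SFTPB differed by 0.41, SFTA2 by 0.08 and the lung transcription factor NKX2-1 by 0.47, each higher in the SCGB3A2-rich cells. No cell type name is given to these 44 cells. Outside the AT2 cells, 61 quality-filtered cells held 50 or more SCGB3A2 UMIs.

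PGC varied between libraries in the other AT2 cells too. Among AT2 cells without SCGB3A2, PGC was found in 97.9%, 81.8% and 35.3% of cells in controls and in 100%, 75.7% and 90.4% in asthma. Control replicate 3 thus stood apart with 17 such cells, of which 76.5% held HHIP. The AT2 cells of control replicate 3 also held all 6 second markers in 23.8% of cells, against 58.7% to 87.2% in the other libraries. Results that rest on control replicate 3 are given without it where they change.

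RNA of AT1, secretory and dividing cells in AT2 cells was compared between groups after thinning each cell to 2000 UMIs, which left out 5, 3, 0, 0, 1 and 12 cells. AGER, the AT1 marker, was found in 12.6%, 22.6% and 23.8% of the AT2 cells of controls and in 7.69%, 10.99% and 12.3% of those of asthma. Every asthma library was below every control library. This was narrow, with 14 of 111 cells in control replicate 1 and 14 of 114 in asthma replicate 11, from 1 random thinning. The difference in group means was -9.35 percentage points (two-sided exact permutation p = 0.1, the smallest possible, and 0.4 adjusted over 4 genes). Unthinned shares were 23.1% to 27.2% in asthma and 26.7% to 38.2% in controls and overlapped (exact permutation p = 0.3). In T cells, thinned in the same way, 0.804% to 3.90% held AGER.

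AGER RNA in AT2 cells was concentrated, since 14 cells with 10 or more AGER UMIs held 66.1% of it. These cells numbered 5, 4 and 0 in controls and 0, 1 and 4 in asthma. SCGB3A2 was found in 9.44% ± 5.66 of control and 13.5% ± 6.05 of asthma AT2 cells after thinning (SD, n = 3 each, exact permutation p = 0.5). SCGB1A1 was found in 16.7% ± 14.4 and 11.1% ± 2.95 (exact permutation p = 0.9), and control replicate 3, at 33.3%, set the control mean. In T cells, thinned in the same way, 0.067% to 6.72% held SCGB3A2 and 0.134% to 3.27% held SCGB1A1. The shares in AT2 cells count cells with a captured UMI, not cells that express the gene. The proliferation gene MKI67 was not detected in any thinned AT2 cell, which allows up to 2.63% of cells with an MKI67 UMI at this depth in asthma replicate 11, the library with the most AT2 cells, and up to 14.3% in control replicate 3. Unthinned, control replicate 1 held 5 MKI67 UMIs and the other libraries 0. These values limit cells with a captured UMI, not dividing cells.

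Next, gene expression of AT2 cells was compared between asthma and control monkeys on the UMIs summed per library. Of 6236 genes tested with edgeR's quasi-likelihood test, 0 were higher and 0 were lower with p adjusted after Benjamini-Hochberg under 0.05 and a log2 fold change beyond 0.25 in size (0% in each direction). The lowest adjusted p was 0.948. An unadjusted p under 0.05 was given to 265 genes (4.25%) by edgeR, and DESeq2 called 0 genes with 98 at an unadjusted p under 0.05. Without the filter on low counts, edgeR called 18 genes higher and 37 lower, PADI2 and CHI3L1 among the former, and 22 of these 55 were too low to be in the filtered table. Counts of this depth were simulated with 1 spread for all genes (edgeR common dispersion 0.054). There, the same test recovered 15% of genes with a true log2 change of 1 and 84.5% of those with one of 2. Most changes of the smaller size were therefore not detected in such counts with 3 libraries per group. Genes that vary more than this between monkeys were not simulated.

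Every asthma library lay above every control library for 320 genes (5.13%) and below for 288 (4.62%). Values for such genes are given below as CPM scaled by TMM, edgeR's correction for library composition, and none of them passed the test. PADI2, an enzyme that turns arginine into citrulline in proteins, had the lowest unadjusted p. It was at 0.925, 14.98 and 5.20 CPM in controls and at 32.7, 35.4 and 63.2 CPM in asthma, from 5 UMIs in controls and 116 in asthma. Its log2 fold change was 3.58 ± 0.67 (SE, edgeR adjusted p = 0.948). CHI3L1, a chitinase-like secreted protein known from asthmatic airways, was at 1.85, 14.98 and 10.4 CPM in controls and 17.6, 52.1 and 36.8 CPM in asthma (log2 fold change 2.84 ± 0.65, edgeR adjusted p = 0.9999). Both genes were low in AT2 cells, and the lowest asthma library of CHI3L1 lay close to the highest control library.

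A gene without a symbol, ENSMFAG00000030611, was singled out after its values were seen. It was at 60.1, 19.97 and 198 CPM in AT2 cells of controls and at 1005, 495 and 412 CPM in asthma, from 107 and 1340 UMIs. The log2 fold change was 2.86 ± 0.57 (edgeR adjusted p = 0.948), and without control replicate 3 it was 3.75 ± 0.50 (edgeR adjusted p = 0.0301). In all other cells it was at 1.02 to 1.45 CPM in controls and 5.10 to 14.4 CPM in asthma (log2 fold change 3.102, edgeR adjusted p = 0.0618). It was thus concentrated in AT2 cells and higher in the asthma libraries in both pools of cells. The pool of other cells also held the 140 cells that met the SFTPC and second marker conditions but were not counted. No background level of this gene was taken off, so the second pool is not a separate observation.

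NRP2, a coreceptor of VEGF and semaphorins, was at 63.8, 125 and 36.4 CPM in controls and 176, 188 and 152 CPM in asthma. CXCL3, a chemokine that attracts neutrophils, was at 12.9, 0 and 5.20 CPM in controls and 27.6, 36.4 and 36.8 CPM in asthma. The remaining genes among the 10 with the lowest p in this direction were SCML4, CYP1B1, ALDOC, ABHD2, CRACR2B and BSPRY. CRACR2B was also higher in the SCGB3A2-rich cells, at 101 CPM against 2.78 CPM in the other AT2 cells over all libraries. It was found in 56.8% of the SCGB3A2-rich cells and 2.60% of the others, and their part in its change was not tested. SCML4, with a log2 fold change of 2.28, passed the test without control replicate 3 (log2 fold change 3.22 ± 0.41, edgeR adjusted p = 0.0301), but its log2 fold change was 1.18 without control replicate 1 (edgeR adjusted p = 0.917). With each library left out in turn, the log2 fold change of PADI2 ran from 2.13 (without control replicate 1) to 4.68 (without control replicate 2), and that of CHI3L1 was 1.57 and 3.47 without the same libraries. Without asthma replicate 10 or 11, CHI3L1 did not pass the filter on low counts and had no value. Without control replicate 1, that of CXCL3 moved from 1.84 to 3.65.

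Among genes lower in every asthma library, ANPEP, the aminopeptidase N of cell surfaces, was at 26.8, 24.96 and 67.6 CPM in controls and 7.54, 9.83 and 9.43 CPM in asthma (log2 fold change -1.91 ± 0.46). STEAP4, a metalloreductase of iron and copper, was at 59.2, 64.9 and 177 CPM in controls and 27.6, 25.6 and 32.1 CPM in asthma (-1.65 ± 0.40). In both, control replicate 3 held the highest value, and without it the log2 fold change of STEAP4 was -1.09. GSTA4, a glutathione transferase for lipid peroxidation products, was at 154, 165 and 146 CPM in controls and 67.8, 110 and 68.8 CPM in asthma (-0.89 ± 0.25). The other genes of this 10 were NME6, the carbonic anhydrase CA12 (log2 fold change -1.77, and -2.81 without asthma replicate 11), the metallothionein MT1F, the chaperone DNAJA1, SKIL, SNRPD1 and IGFLR1. The adjusted p was 0.9999 for each of the 10 (edgeR).

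**Figure D4:**
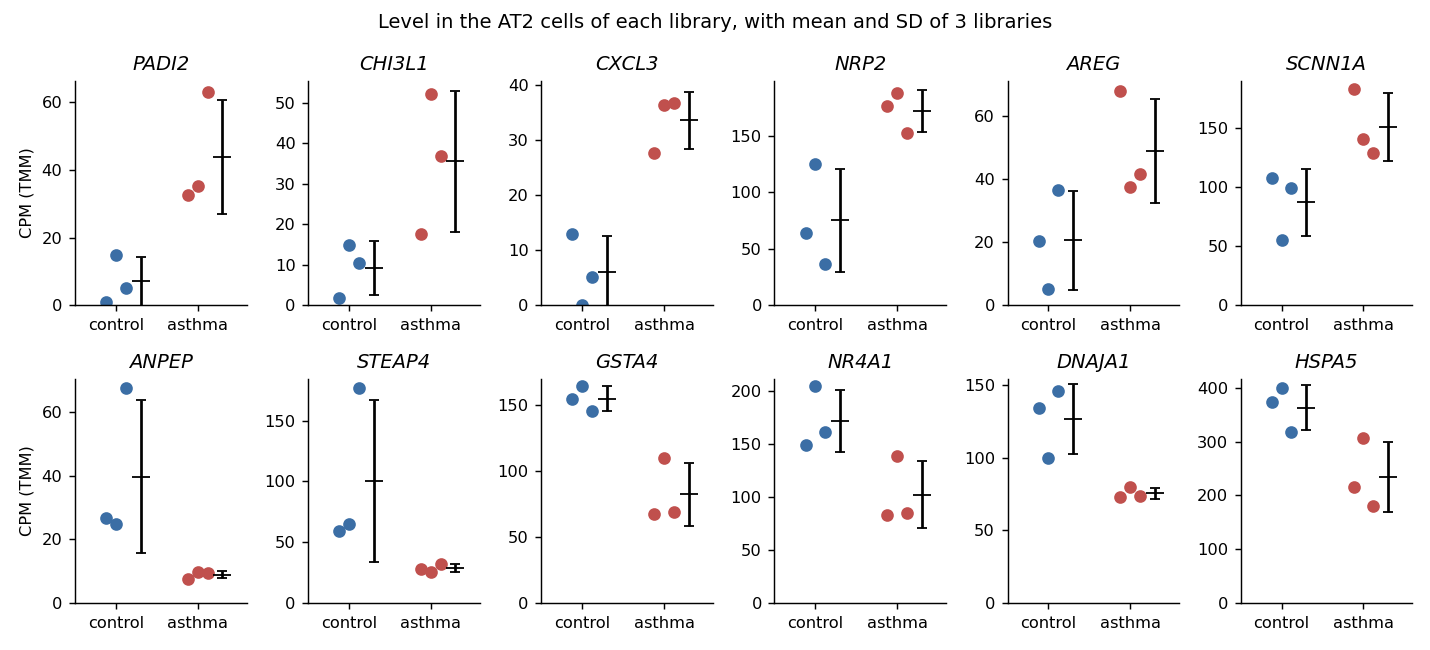
Level in the AT2 cells of each library (CPM scaled by TMM, axes from 0) for 6 genes higher and 6 genes lower in every asthma library, with mean and SD of 3 libraries per group in black. The groups do not overlap in any panel, yet no gene passed the test over 6236 genes.

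Gene lists were described by counts and medians beside those of all genes tested, whose median log2 fold change was 0.00. In no list did a gene pass the test. The rule genes are left out of these counts. Of 28 tested genes of surfactant and sterol lipid synthesis, 14 were above and 14 below 0, with a median of -0.01 and no gene without overlap between groups. The members with the lowest p were INSIG1, the sterol sensor, ACSL4, an acyl-CoA synthetase, and HMGCS1 and STARD4 of sterol synthesis and transport, with log2 fold changes of 0.45 to 0.68. With a library left out, INSIG1 ran from 0.32 to 1.15 and HMGCS1 from 0.50 to 1.33. Of 9 tested genes of lamellar bodies and surfactant processing, none separated the groups, and the median was 0.05. SFTPB was at 1177, 1253 and 1311 CPM in controls and 1311, 1290.1 and 2425 CPM in asthma (log2 fold change 0.43 ± 0.28, edgeR adjusted p = 0.9999). Without asthma replicate 11 its log2 fold change was 0.059.

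Of 12 tested alveolar transcription factors, 2 were higher in every asthma library. YAP1, the effector of the Hippo pathway, was at 30.0 to 48.1 CPM in controls and 52.7 to 81.1 CPM in asthma, and STAT3 at 105 to 130.1 and 130.6 to 149 CPM. In alveolar transition and repair (17 tested, median -0.13), AREG, an EGF receptor ligand, was at 20.3, 4.99 and 36.4 CPM in controls and 67.8, 37.4 and 41.5 CPM in asthma. KRT7 was at 203 to 315 and 171 to 199 CPM. The AT1 markers in this list pointed apart, with log2 fold changes of 0.41 ± 0.24 for HOPX and -1.03 ± 0.70 for AGER. With a library left out, that of HOPX ran from 0.21 to 0.53. AGER was at 105, 589 and 114 CPM in controls and 57.8, 50.1 and 260 CPM in asthma. The high value of control replicate 2 rested on 4 cells, which held 91.5% of its AGER UMIs.

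Of 37 targets of IL-17 and NF-kB, 14 passed the filter on low counts, 11 of them above 0 with a median of 0.33, and 2 were higher in every asthma library. CXCL3 was 1 of the 2. LCN2 was at 397, 245 and 505 CPM in controls and 525, 1227 and 376 CPM in asthma, with the high value in asthma replicate 10. CXCL8, another neutrophil chemokine, was at 7.40, 14.98 and 0 CPM in controls and 55.3, 25.6 and 4.71 CPM in asthma. IRF1, an interferon-induced transcription factor, was at 24.96 to 52.0 CPM in controls and 31.1 to 82.9 CPM in asthma. These chemokine levels rest on few UMIs and the groups of CXCL8 overlapped.

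Of 6 tested MHC class II genes, which AT2 cells use to present antigen, 5 were above 0 (median 0.30) and none separated the groups. HLA-DRA was at 410, 504.3 and 213 CPM in controls and 337, 942 and 455 CPM in asthma. CD74, the invariant chain, was at 784 to 1298 and 952 to 1704 CPM. Of 9 tested interferon-stimulated genes, 1 was higher in every asthma library, IFI6, at 14.98 to 26.0 and 30.1 to 33.4 CPM, and the median was -0.07. Of 7 tested genes of the type 2 response, 2 were higher and 1 was lower in every asthma library. IL13RA1, a chain of the IL-13 receptor, was at 270, 310 and 364 CPM in controls and 404, 434 and 374 CPM in asthma. IL4R was at 15.6 to 34.9 and 6.88 to 15.1 CPM, and IL33, the alarmin, at 9.99 to 98.8 and 45.2 to 57.5 CPM.

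Over all 6236 genes, 3142 were below 0. Of 15 tested immediate-early genes, which tissue dissociation is known to induce, 13 were below 0 and 2 separated the groups, with a median of -0.10. NR4A1 was at 149, 205 and 161 CPM in controls and 82.9, 139 and 84.9 CPM in asthma, and FOSL2 at 24.96 to 46.8 and 13.2 to 22.6 CPM. FOSB ranged from 89.9 to 1529 CPM within the controls alone, so the spread between monkeys exceeded the group difference. Of 11 tested heat shock genes, 9 were below 0 (median -0.32). DNAJA1 was at 134, 99.9 and 146 CPM in controls and 72.8, 79.6 and 73.5 CPM in asthma, and HSP90AB1 at 899 to 978 and 665 to 814 CPM.

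Of 17 tested genes of the unfolded protein response, 13 were below 0 (median -0.13), with 3 lower and 2 higher in every asthma library. HSPA5, the main chaperone of the endoplasmic reticulum, was at 373, 399 and 317 CPM in controls and 216, 307 and 181 CPM in asthma, and ATF4 at 302 to 361 and 214 to 283 CPM. EDEM1 and PDIA3 pointed upward. Of 14 tested genes of ion and fluid transport, 9 were above 0 (median 0.26). SCNN1A, the subunit of the epithelial sodium channel that clears alveolar fluid, was at 107, 54.9 and 98.8 CPM in controls and 183, 141 and 129 CPM in asthma (log2 fold change 0.72 ± 0.27).

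Of 20 tested growth factors and receptors, 11 were above 0 (median 0.00), with FGFR2 and NOTCH2 higher in every asthma library. FGFR2 was at 379 to 504.1 CPM in controls and 519 to 591 CPM in asthma. Of 21 genes that the study names for lung epithelial cells, 13 were tested, 10 were below 0 (median -0.10), and USP38 and CTNNB1 were lower in every asthma library. CTNNB1, the beta-catenin gene, was at 161, 240 and 172 CPM in controls and 143, 138 and 147 CPM in asthma. This list was chosen on these samples and its directions are not independent evidence. Over all lists, 24 of 187 different genes (12.8%) separated the groups, 13 higher and 11 lower in asthma, beside 9.75% of all tested genes.

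**Figure D5:**
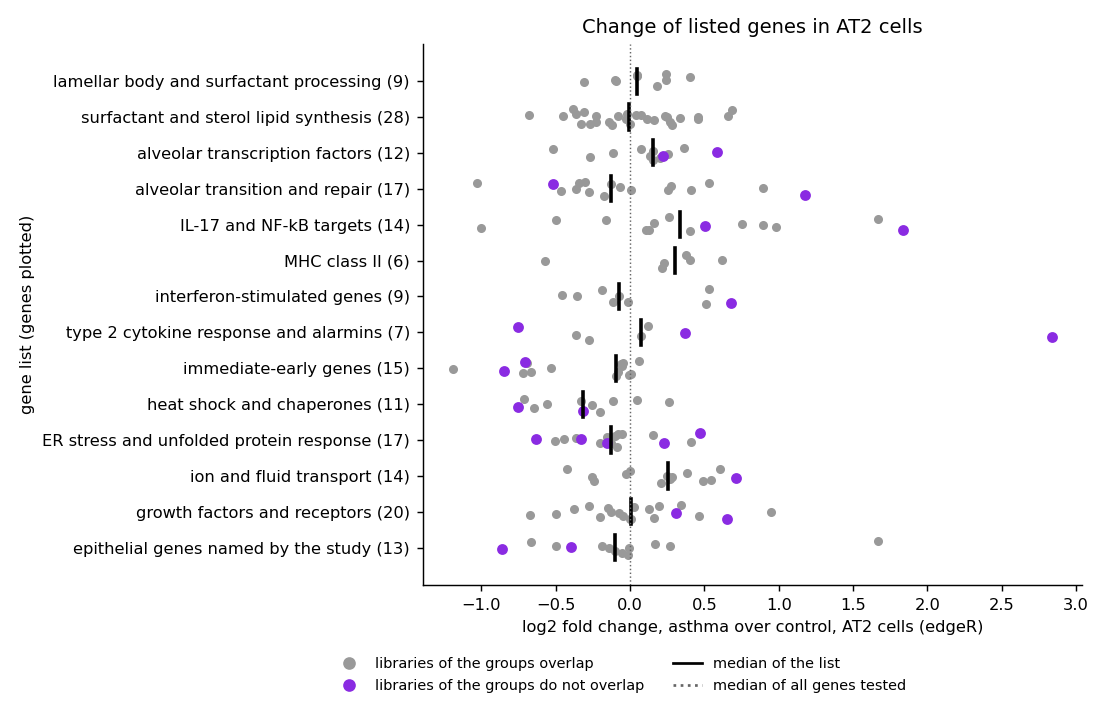
Log2 fold change (asthma over control, AT2 cells) of every tested gene of 14 lists, with the number plotted in brackets, purple where the libraries of the groups do not overlap, a black bar at the list median and a dotted line at the median of all genes. The medians lie between -0.32 for heat shock genes and 0.33 for IL-17 and NF-kB targets.

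Finally, the change in AT2 cells was tested against the change in all other cells of the same libraries, with the library as a block. Of 6236 genes, 1 had a higher change in AT2 cells (0.016%) and 7 a lower one (0.112%) at an edgeR adjusted p under 0.05. Without control replicate 3 these counts were 7 and 35. In simulated counts, this test recovered 0% of genes with a true log2 change of 1 and 75.5% of those with one of 2. The other cells were drawn there from the AT2 profile with the same spread, so these rates hold only for such counts. For the 7 in all libraries, the other cells had a higher mean in asthma while the log2 fold change in AT2 cells lay between -0.42 and 0.41. ADGRL2, an adhesion receptor of the latrophilin family, was at 63.8, 89.9 and 78.0 CPM in control AT2 cells and 82.9, 61.0 and 81.1 CPM in asthma AT2 cells. In the other cells it was at 6.77, 7.63 and 7.57 CPM in controls and 43.6, 49.99 and 61.4 CPM in asthma. The difference of the changes was -2.88 ± 0.27 (edgeR adjusted p = 0.00194), and it passed the test without each library in turn.

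ADGRF5, an adhesion receptor that restrains the surfactant pool, was at 273, 409 and 203 CPM in control AT2 cells and 412, 446 and 312 CPM in asthma AT2 cells. In the other cells it was at 6.996 to 8.86 CPM in controls and 42.1 to 55.6 CPM in asthma, and the difference of the changes was -2.23 ± 0.34 (edgeR adjusted p = 0.0421). The junction scaffold TJP1, the metalloproteinase inhibitor TIMP3, the serine protease HPN, RGS7BP and 1 gene without a symbol had differences of -1.62 to -2.57. In the pool of other cells, more cells of a type and more RNA per cell cannot be told apart. The study names ADGRF5 and ADGRL2 as specific to endothelial clusters among its stromal cells. Endothelial markers, PECAM1 included, summed there to 394, 398 and 574 CPM in controls and 906, 677 and 981 CPM in asthma, and their part in these differences was not tested.

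CXCL3 was the 1 gene in the other direction. It was at 296, 130 and 114 CPM in the other cells of controls and at 38.4, 124 and 34.0 CPM in those of asthma, while in AT2 cells every asthma library was above every control library. The difference of the changes was 3.83 ± 0.61 (edgeR adjusted p = 0.0435), and it was not called without control replicate 1, without control replicate 2, without asthma replicate 8 or without asthma replicate 11. With any of these 4 libraries left out, ADGRL2 was the only gene called in either direction, so ADGRF5 and the other 5 lower genes lost their call there too. The differences of the genes with a symbol kept their sign with a library left out, which their choice by the test on all libraries favors. They ran from -2.76 to -2.35 for RGS7BP, from -2.49 to -1.91 for ADGRF5 and from -1.93 to -1.53 for TJP1. Those of HPN ran from -1.91 to -1.52, of TIMP3 from -1.84 to -1.45 and of CXCL3 from 3.28 to 4.81. Against other epithelial cells in place of all other cells, with control replicate 2 left out because it held 7 of them, none of these 8 genes was called, and the differences of the changes of RGS7BP and ADGRF5 turned positive, at 2.32 and 0.65. Leaving out control replicate 2 alone already lost 7 of the 8 calls, so these lost calls do not separate the comparator from the library. With control replicate 2 left out and all other cells as the comparator, ADGRL2 kept its call. RGS7BP and ADGRF5 stayed negative there, so the turns in sign came only with the change of comparator.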

How the data were processed

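Lung cells of 6 monkeys were profiled as 1 library each (3 control, 3 asthma), so the library was the replicate. The deposited matrices hold UMI counts per gene and barcode that the authors made with Cell Ranger. The submitters' processing notes name version 2.1.1 and the file header names version 4.0.0, while the study's methods name yet another version and macFas6 as the reference genome. The deposited counts are not normalized. The members and the gene lists were chosen with earlier results of these data known.

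Cells were selected by the rule given at the start of the results, without clustering. Doublets were not removed in the results, and Scrublet calls (scanpy 1.11.5, the highest scores, 0.8% per 1000 cells of a library) were an alternative. UMIs of AT2 cells were summed per library (at least 10 cells each) and tested with edgeR 4.0.16 in R 4.3.3 (TMM, filterByExpr, quasi-likelihood fit, Benjamini-Hochberg adjustment). A gene was called at an adjusted p under 0.05 with a log2 fold change of more than 0.25 in size. The change in AT2 cells against the change in other cells was an interaction term with the library as a block. Shares and depths were compared with exact permutation tests over all assignments of libraries to groups, 20 with all 6 libraries. For SCGB1A1, SCGB3A2, AGER and MKI67, cells were thinned to 2000 UMIs, since depth sets how many cells show a UMI. A count of 0 was taken to allow up to 3 counts. Intervals and such limits cover counting error only. The edgeR and Wilcoxon steps were tested on simulated data.

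The text names up to 10 genes in each direction that have a symbol, lie outside the rule and separate all asthma from all control libraries, by unadjusted p. It also draws on at most 4 genes of each list by unadjusted p, and on the 20 genes with the highest median fold over other cells among those at 100 CPM or more. List genes beyond these and all genes of the SCGB3A2-rich cells, as well as S100A9, were chosen after their values were seen. Of the genes in the files, 21095 have a symbol and 7528 have only an Ensembl identifier. KRT8, KRT18, SFTPA1 and SFTPA2 were not matched.

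Alternatives were a mitochondrial maximum of 10%, a minimum of 50 SFTPC UMIs, removal of Scrublet calls, each library left out in turn, a denominator without PTPRC-positive cells, DESeq2 1.42.0, no filter on low counts, a Wilcoxon test across cells (genes in at least 10% of a group's cells, Bonferroni adjustment), 21 AT2 cells from each library, other epithelial cells as the comparator and unthinned cells. Total-count scaling and AT2 cells with under 10 SCGB3A2 UMIs were added after seeing the data. A result for 1 gene is not reported here.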

Additional observations from a re-analysis of the deposited data

Results flagged for a closer look

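For 8 genes the asthma change in AT2 cells differed from the asthma change in all other cells of the same libraries by the test of that difference (edgeR, library as a block, adjusted over 6236 genes). The difference of the log2 changes was -2.88 for ADGRL2, -2.57 for RGS7BP, -2.23 for ADGRF5, -2.23 for ENSMFAG00000041985 (a gene without a symbol), -1.80 for TJP1, -1.66 for HPN and -1.62 for TIMP3. It was 3.83 for CXCL3. The edgeR adjusted p was 0.00194 for ADGRL2 and 0.0421 to 0.0437 for the other 7. In the other cells alone, ADGRL2 and ADGRF5 were also called higher in asthma (edgeR adjusted p = 0.00659 for each), and the other 6 were not. The study names ADGRL2 and ADGRF5 as specific to endothelial clusters among its stromal cells. Without control replicate 1, control replicate 2, asthma replicate 8 or asthma replicate 11, the calls of 7 of the 8 genes were lost, and ADGRL2 alone passed with each library left out in turn. For the genes with a symbol, the differences kept their sign with a library left out, which their choice by the test on all libraries favors. The negative ones lay between -3.03 (ADGRL2) and -1.45 (TIMP3), and that of CXCL3 lay between 3.28 and 4.81.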

How the results depend on the processing

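The AT2 share was higher in asthma by 0.0752 to 1.19 percentage points when each library was left out in turn, and lower by 1.99 (-1.99) over cells without PTPRC. The difference in depth ran from -410 UMIs (without control replicate 2) to 3240 UMIs, that in the SCGB1A1 share from -10.5 to 2.61 percentage points (positive without control replicate 3), the AGER difference from -12.9 to -7.28 and the SCGB3A2 difference from 0.984 to 7.03, while MKI67 stayed at 0 and was at -1.44 in unthinned cells. The 0 genes called higher in asthma became 18 without the filter on low counts, 33 by the Wilcoxon test across cells, 1 (ENSMFAG00000030611, log2 fold change 4.08, edgeR adjusted p = 0.00357) in AT2 cells with under 10 SCGB3A2 UMIs, and 0 to 2 with a library left out (2 without control replicate 3, SCML4 and ENSMFAG00000030611). The 0 genes called lower became 37 without the filter and 16 by Wilcoxon, and were 0 with each library left out. DESeq2, equal cell numbers, total-count scaling, the stricter mitochondrial and SFTPC limits and removal of Scrublet calls gave 0 in both directions. Of the 49 Wilcoxon genes, 48 were in the table tested per library and 18 of those had groups that did not overlap. Genes with a higher change in AT2 cells than in all other cells numbered 32 without the filter and 0 to 7 with a library left out, and those with a lower change 134 and 1 to 35, with 7 and 35 both without control replicate 3. Against other epithelial cells, in 5 libraries (without control replicate 2), 1 gene (OLFML3) had a higher change and 0 a lower one, and the differences of RGS7BP (2.32) and ADGRF5 (0.65) turned positive. Of 948 values of 72 named genes, 944 kept their direction. These genes were chosen by low p or by separation of the groups in the same libraries, so their kept directions were partly set by that choice. With a library left out, SFTA2 ran from -0.0097 (without control replicate 3) to 0.48, ISG20 from -0.11 (without control replicate 1) to 0.88, DNAJB4 from -0.92 to 0.078 and DNAJB6 from -0.79 to 0.089 (both positive without control replicate 1). Causes of these changes were not tested. The values of control replicates 2 and 3 rest on 34 and 21 AT2 cells and on 199838 and 189209 UMIs, fewer than in each of the other libraries. No paired analysis was possible because the control and asthma libraries share no replicate numbers.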

Other observations

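In all cells other than AT2 cells, edgeR called 20 of 14326 genes, each of them higher in asthma (adjusted p under 0.05, 3 libraries per group).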
